A study of Mus musculus with 4 samples.

Results

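Wnt proteins are secreted signals that bind Frizzled receptors on the cell surface. The coreceptors Lrp5 and Lrp6 join the Wnt-Frizzled complex when the signal runs through beta-catenin, while Ror1, Ror2 and Ryk are kinase-like receptors used mainly by Wnts that signal without it, such as Wnt5a. R-spondins carry no Wnt signal of their own: they bind the receptors Lgr4, Lgr5 and Lgr6 and withdraw the ubiquitin ligases Znrf3 and Rnf43, which would otherwise remove Frizzled from the membrane. In fibroblasts and other mesenchymal cells these signals are known for their parts in growth, cell fate and cell polarity. The genes described here are these ligands, receptors and coreceptors, taken by name from the array design: every name beginning with Wnt or Fzd and a number, together with Lrp5, Lrp6, Ror1, Ror2, Ryk, Rspo1 to Rspo4 and Lgr4 to Lgr6. They were read by 58 of the 61307 probes and are 41 of the 50090 gene names on the array: 19 Wnt ligands, 10 Frizzled receptors, 2 LRP coreceptors, 3 kinase-like receptors, 4 R-spondins and 3 LGR receptors.

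The cells were C3H10T1/2, an established mouse embryo fibroblast line. In the group labelled 3MC+TPA, flasks had received 2.5 µg/ml of 3MC (3-methylcholanthrene, a polycyclic hydrocarbon carcinogen) for 2 days, then 100 ng/ml of the phorbol ester TPA over 2 weeks, then normal medium for 4 weeks. Control cells were cultured for 6 weeks without these agents. Each group had 2 arrays of one dye. The protocols state that RNA was taken from whole flasks in which transformed foci were scored, and that hybridisation was in duplicate. Whether the 2 arrays of a group hold RNA of different flasks is not stated, and every p-value here measures only the spread within such a pair, which may be technical.

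Each value is a log2 ratio of a probe's processed signal to the 75th percentile of its array, so a difference of 1 unit is 2-fold. The 75th percentile signal was 698.5 and 744.6 on the 3MC+TPA arrays and 538.9 and 594 on the control arrays, and 32125 to 32512 of the 61657 non-control spots per array were well above background, the scanner software's own flag for a spot brighter than its surroundings. No spot was saturated. A gene was read by its brightest probe and tested with limma where that probe was well above background on both arrays of at least 1 group, with Benjamini-Hochberg adjustment over all 24978 genes so measured; "called" means an adjusted p under 0.05. Fibroblast markers identify the cultures: 9 of 9, with Col1a1, Col1a2 and Vim among them, were above background on all 4 arrays, and their summed signal in multiples of the 75th percentile was 1540 and 1590 on the 3MC+TPA arrays and 1890 and 1720 on the control arrays. Of those 9, Thy1 was called higher (2.98 log2) and Pdgfra and Pdgfrb lower (-1.47 and -1.02 log2). Of 6 epithelial markers 3 were above background on all 4 arrays, with sums of 0.277 and 0.306 in 3MC+TPA and 0.27 and 0.301 in control cells. Of 6 leukocyte markers 3 were, with sums of 0.352 and 0.379 in 3MC+TPA and 0.268 and 0.32 in control cells. Endothelial markers summed to 0.0965 and 0.104 on the 3MC+TPA arrays against 0.0644 and 0.0399 on the control arrays, and only Tek of those 4 was tested, at least 1.77-fold higher and called. The defining markers Cdh1, Krt18, Pecam1, Cdh5, Ptprc and Itgam were above background on no array. The part of these shifts in the results was not tested, and in RNA of whole flasks fewer cells of a type and less RNA per cell cannot be told apart.

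Of the 41 genes, 22 were tested, 3 were called higher in 3MC+TPA cells (Rspo3, Wnt9a and Fzd6) and 5 were called lower (Rspo1, Rspo2, Wnt5a, Fzd1 and Fzd4). The 8 calls are 36.4% of the 22 tested, where 15.7% of all 24978 tested genes were called, 7.33% higher and 8.34% lower. The 2 arrays of one group lay wholly above those of the other for 17 of the 22, 8 of them higher and 9 lower in 3MC+TPA cells. That separation was common on these arrays, at 63.8% of all tested genes, 31.7% higher and 32% lower. The median log2 change of the 22 was -0.25 and that of all tested genes -0.01. The sign of the members' median was not stable: it was 0.11 with the median over a gene's measured probes, 0.10 with no scaling between arrays and 0.21 without the second 3MC+TPA array. Calls fell in both directions within R-spondins, Wnt ligands and Frizzled receptors alike, while no LRP, LGR or kinase-like receptor was called by its brightest probe. Of the 41 genes, 17 were above background on all 4 arrays and 14 on none. The other tested genes, Rspo1, Wnt5a, Fzd6, Fzd10 and Lgr4, were measured on both arrays of 1 group only, so for them the filter on low signal favours a difference, and the counts do not describe all 41.

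**Figure D1:**
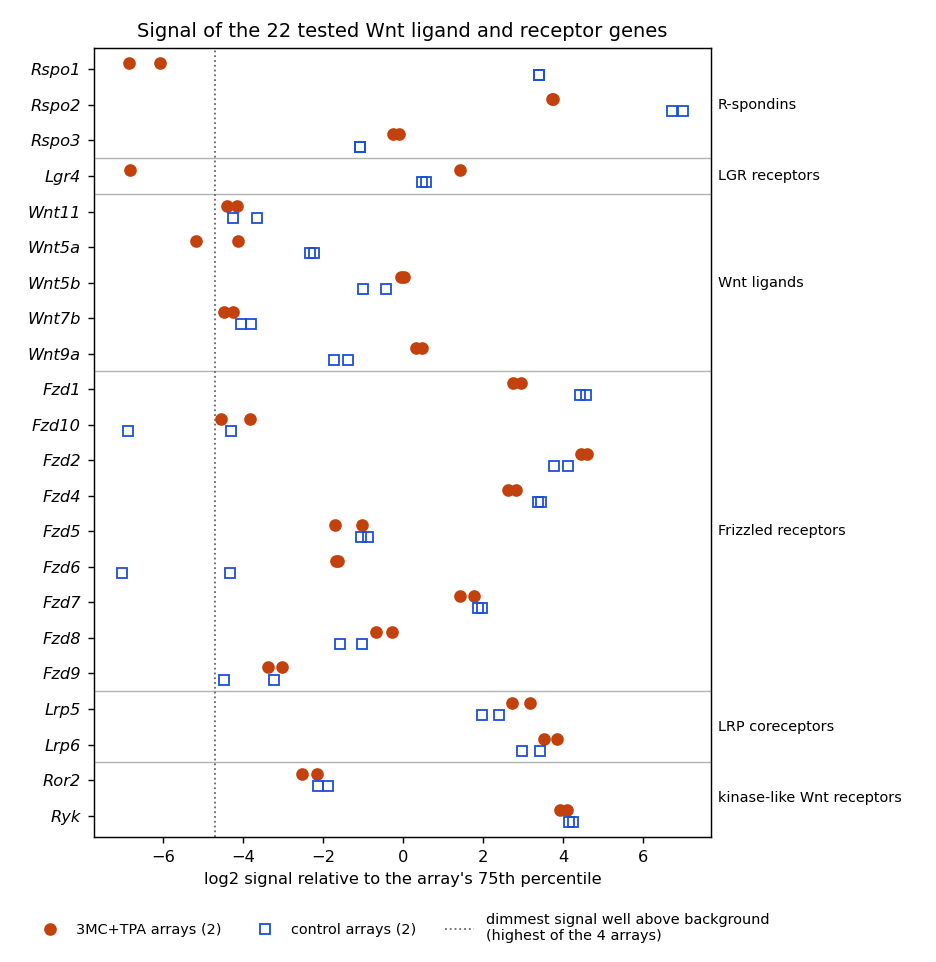
Signal of each of the 22 tested genes on each array, as log2 relative to the array's 75th percentile (horizontal axis), with 3MC+TPA arrays as filled circles above the open squares of the control arrays, and genes in rows by role. The dotted line marks the dimmest signal well above background. Rspo1 lies at -6.86 and -6.07 in 3MC+TPA cells, left of the line, and at 3.40 on both control arrays.

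Every tested R-spondin was called, 3 of 3, where 15.7% of all tested genes were. No other of these families had this, but the LGR, LRP and kinase-like families had only 1, 2 and 2 tested genes. Rspo1 was measured on both arrays of the control group only, so the filter on low signal favours a difference, and Rspo4 was not tested. Rspo1, a secreted ligand of the LGR receptors, read -6.86 and -6.07 in 3MC+TPA cells and 3.40 and 3.40 in control cells. Both 3MC+TPA values were below background and both control values were far above it, with no overlap. Because the lower group has only an upper limit, the change is given as at least 295-fold lower, set against the dimmest signal well above background on each 3MC+TPA array. The limma fit gave -9.87 ± 0.29 log2 (SE, n = 2 each; adjusted p = 0.00023), and -6.36 log2 with normexp, a model-based background correction applied here with an offset of 50, so the size of the fall depends on how background is treated.

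Rspo2, a second R-spondin with the same receptors, read 3.75 and 3.72 in 3MC+TPA cells and 7.0 and 6.73 in control cells. All 4 arrays were above background, and the 3MC+TPA pair lay well under the control pair. It fell by 3.13 ± 0.17 log2 (SE, n = 2 each), an 8.76-fold lower signal, with limma's adjusted p = 0.001. Rspo3 went the other way, with -0.25 and -0.10 in 3MC+TPA cells and -1.07 and -1.09 in control cells. The groups did not overlap, and the rise was 0.91 ± 0.15 log2 or 1.87-fold (SE, n = 2 each; limma adjusted p = 0.022). The call of Rspo3 did not hold when any 1 of the 4 arrays was left out, with changes of 0.83 to 0.98 log2 and adjusted p of 0.059 to 0.11 in limma. Those of Rspo1 and Rspo2 held in all 4 such fits, in which the remaining single array of a group is assumed to vary like the pair of the other group. Rspo4, the fourth R-spondin, was above background on no array by either of its 2 probes.

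The probe of Rspo3 is shown here because it is the one R-spondin probe that read an increase. It is 60 bases long, lies on chromosome 10 and has 1 reading frame without a stop codon along its whole length.
Rspo3 probe: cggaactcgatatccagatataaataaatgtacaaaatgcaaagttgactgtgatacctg

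The LGR receptors, to which R-spondins bind, were measured poorly. Lgr5 was above background on no array, between -7.09 and -6.94. Lgr6 read -4.64 and -4.89 in 3MC+TPA cells and -6.54 and -6.94 in control cells, and only the first of those 4 values was above background, so it was not tested. Lgr4 had 3 probes, all tested and none called. Its brightest probe read 1.43 and -6.83 in 3MC+TPA cells and 0.58 and 0.48 in control cells. The second 3MC+TPA value stands apart from the other 3, and it alone was below background. The resulting change was -3.23 ± 2.6 log2 (SE; limma adjusted p = 0.44), and it turned to 0.90 log2 (adjusted p = 0.097) without that array. Without the other 3MC+TPA array it was -7.36 log2 (adjusted p = 0.0027), a call that rests on that single value. The other Lgr4 probes read -0.27 and -0.47 against -0.96 and -0.59, and -4.35 and -4.45 against -4.58 and -5.44, 3MC+TPA first. Neither pair of groups overlapped, and the changes were 0.41 ± 0.20 and 0.62 ± 0.31 log2 (SE, n = 2 each; limma adjusted p = 0.23 for both).

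Most Wnt ligands gave no measurable signal in either group. Of the 19, 14 were not tested: Wnt1, Wnt2, Wnt2b, Wnt3, Wnt3a, Wnt4, Wnt6, Wnt7a, Wnt8a, Wnt8b, Wnt9b, Wnt10a, Wnt10b and Wnt16. Their values ran from -7.15 to -2.97, and 10 of them were above background on no array. The highest was Wnt10a at -2.97 on 1 of the 3MC+TPA arrays, with -7.13 on the other and -7.02 and -6.63 in control cells. Wnt4 was above background on a single control array (-3.98), and Wnt1 on a single 3MC+TPA array (-4.60). Wnt6 was above background on 1 array of each group. At this signal, differences among these 14 genes were not detectable.

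Of the Wnt ligands 5 were tested, and the 2 that were called moved in opposite directions. Wnt9a, a ligand usually placed with the beta-catenin branch, read 0.48 and 0.33 in 3MC+TPA cells and -1.39 and -1.74 in control cells. The 3MC+TPA pair lay above the control pair, by 1.97 ± 0.19 log2 or 3.92-fold (SE, n = 2 each; limma adjusted p = 0.0048). Its second probe was above background on no array. Wnt5a, the ligand best known for signalling without beta-catenin, read -4.13 and -5.19 in 3MC+TPA cells and -2.24 and -2.32 in control cells. Only 1 of the 3MC+TPA values was above background, and both were under the control values. The signal fell by 2.38 ± 0.36 log2, 5.2-fold (SE, n = 2 each; limma adjusted p = 0.017). The change was -2.91 log2 without the first 3MC+TPA array and -1.85 without the second, with calls in both. With normexp the change was -1.11 log2 (adjusted p = 0.0038), and without a filter on dim probes the call ended (limma adjusted p = 0.11). A second Wnt5a probe was above background on no array.

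The Wnt5a probe that was called is shown because it alone carries that gene's result. It lies on chromosome 14 and has 1 reading frame without a stop codon.
Wnt5a probe: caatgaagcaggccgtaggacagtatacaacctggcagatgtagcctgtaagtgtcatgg

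The other tested ligands were not called. Wnt5b, the closest relative of Wnt5a, read -0.05 and 0.02 in 3MC+TPA cells and -0.44 and -1.0 in control cells, with no overlap. The difference was 0.71 ± 0.23 log2 (SE, n = 2 each; limma adjusted p = 0.1), and its second, dimmer probe gave 0.39 ± 0.32 log2 with overlapping groups. Wnt5b was thus positive by both probes where Wnt5a was negative, though only the Wnt5a change was called, and the difference between the 2 genes was not tested. Wnt7b was near background at -4.48 and -4.26 in 3MC+TPA cells and -3.81 and -4.06 in control cells (-0.43 ± 0.18 log2, limma adjusted p = 0.17, n = 2 each). Wnt11 read -4.40 and -4.15 against -3.65 and -4.26 in control cells and overlapped (-0.32 ± 0.25 log2, limma adjusted p = 0.44, n = 2 each).

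**Figure D2:**
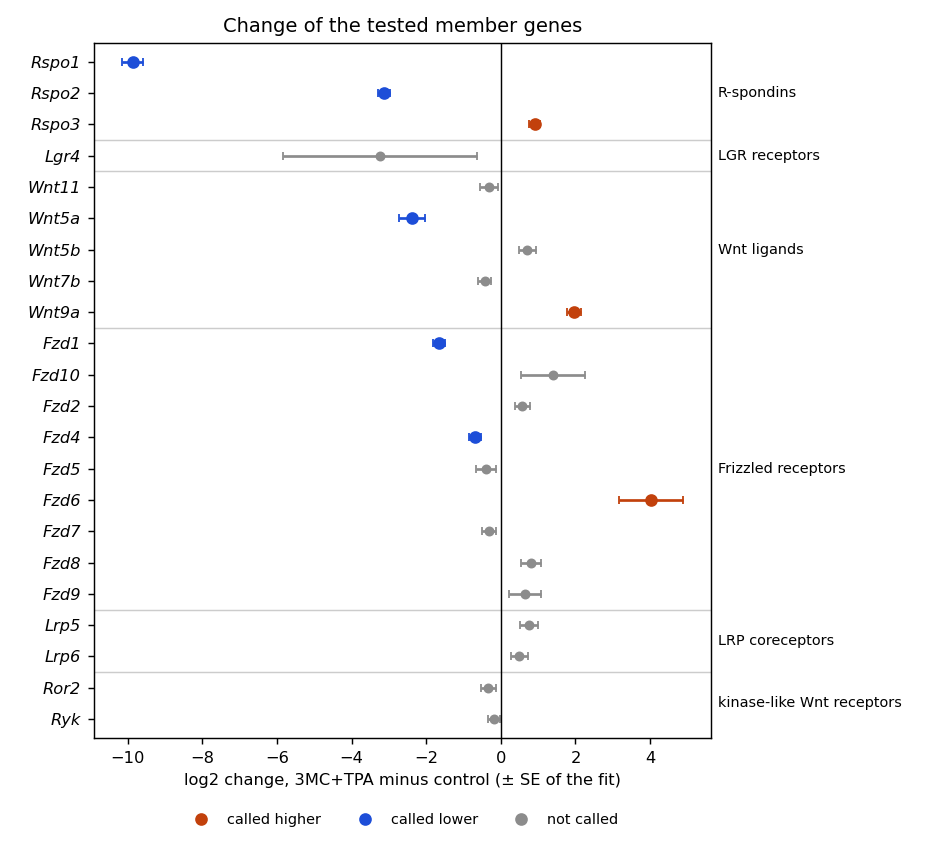
Log2 change of the 22 tested genes, 3MC+TPA minus control, with the standard error of the limma fit as bars (horizontal axis) and genes in rows by role. Orange points were called higher, blue points lower and grey points not called. The change of Rspo1, -9.87, depends on values under background, and its lower limit is 295-fold. Lgr4 has the longest bar.

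Of the 10 Frizzled receptors 9 were tested, and 3 were called. Fzd1, a Wnt receptor of the beta-catenin branch, read 2.94 and 2.75 in 3MC+TPA cells and 4.57 and 4.43 in control cells. The groups were clearly apart, and the signal fell by 1.66 ± 0.16 log2 or 3.15-fold (SE, n = 2 each; limma adjusted p = 0.0051), a call that also held in the fits without 1 array, with the same assumption on the single array. Fzd4, a receptor also used by the non-Wnt ligand norrin, read 2.81 and 2.62 in 3MC+TPA cells and 3.44 and 3.36 in control cells. The groups did not overlap and the fall was 0.69 ± 0.16 log2, 1.61-fold (SE, n = 2 each). With an adjusted p = 0.049 in limma, Fzd4 was the call nearest the threshold: it ended in 11 of 17 alternatives, among them all 4 that left out an array, and as its own probe among all probes it was not called (adjusted p = 0.05).

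Fzd6, a Frizzled receptor of the planar polarity branch, read -1.69 and -1.63 in 3MC+TPA cells and -4.34 and -7.04 in control cells. Both 3MC+TPA values were above both control values, of which the lower was under background. The rise was 4.03 ± 0.86 log2, or 16.3-fold (SE, n = 2 each; limma adjusted p = 0.039). Its size depended on the control array used, with 2.67 log2 without the dimmer control array and 5.38 without the brighter one. Without the first or the second 3MC+TPA array the change was 4.06 or 4.00 log2 and limma's adjusted p was 0.14 or 0.15, so the call ended. It was 1.57 log2 with normexp, and the call also ended without a filter on dim probes (limma adjusted p = 0.18).

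The remaining Frizzled receptors were not called. Fzd2 read 4.44 and 4.60 in 3MC+TPA cells and 4.12 and 3.76 in control cells, a difference of 0.58 ± 0.19 log2 without overlap (SE, n = 2 each; limma adjusted p = 0.11). Fzd8 read -0.29 and -0.67 against -1.02 and -1.57 in control cells, a difference of 0.81 ± 0.26 log2 without overlap (SE, n = 2 each; limma adjusted p = 0.097). Both were called higher when background was corrected by normexp, with adjusted p = 0.04 for each. Fzd9 read -3.37 and -3.03 in 3MC+TPA cells and -3.22 and -4.49 in control cells. Fzd10 read -3.83 and -4.55 against -4.30 and -6.88 in control cells. In both the groups overlapped, with limma changes of 0.65 ± 0.44 and 1.40 ± 0.85 log2 (SE, n = 2 each; adjusted p of 0.35 and 0.31). Both were called higher in the fit that left out the first control array (1.28 and 2.69 log2, adjusted p of 0.037 and 0.014). Fzd3 was above background on no array by any of its 3 probes.

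Fzd5 and Fzd7 gave opposite signs by different probes. The brighter Fzd5 probe read -1.03 and -1.71 in 3MC+TPA cells and -0.87 and -1.06 in control cells, a change of -0.40 ± 0.26 log2. The other read -2.48 and -2.92 against -2.99 and -3.28 in control cells, a change of 0.43 ± 0.22 log2, and neither was called. The brighter Fzd7 probe read 1.77 and 1.42 in 3MC+TPA cells and 1.87 and 1.96 in control cells, a change of -0.32 ± 0.19 log2 (SE, n = 2 each; limma adjusted p = 0.29). The other Fzd7 probe read -0.66 and -0.47 against -1.23 and -1.33 in control cells. It was called higher, at 0.71 ± 0.16 log2 (SE, n = 2 each; limma adjusted p = 0.046 over all probes). No direction is therefore given for Fzd5 or Fzd7.

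The Fzd7 probe that was called resembles a probe of Fzd2. Of 1653 pairs among the 58 probes, 2 shared a run of at least 12 bases, and outside those 2 pairs the longest run was 10 bases. The brightest Fzd2 probe (chromosome 11) and the dimmer Fzd7 probe (chromosome 1) matched at 42 of 50 aligned bases, 84%, with a run of 14 in common. They are shown for this likeness, whose part in their readings was not tested. Capitals mark the bases that match between them.
Fzd2 probe: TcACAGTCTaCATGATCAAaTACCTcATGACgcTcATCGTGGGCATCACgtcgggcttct
Fzd7 probe: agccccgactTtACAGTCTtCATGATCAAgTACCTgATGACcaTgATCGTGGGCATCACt
Both of these probes gave higher values in 3MC+TPA cells, as did the second Fzd2 probe, at -1.89 and -1.80 against -2.42 and -3.54 in control cells (1.13 ± 0.38 log2, limma adjusted p = 0.11, n = 2 each). The Fzd7 probe without such a match was the one that read lower.

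**Figure D3:**
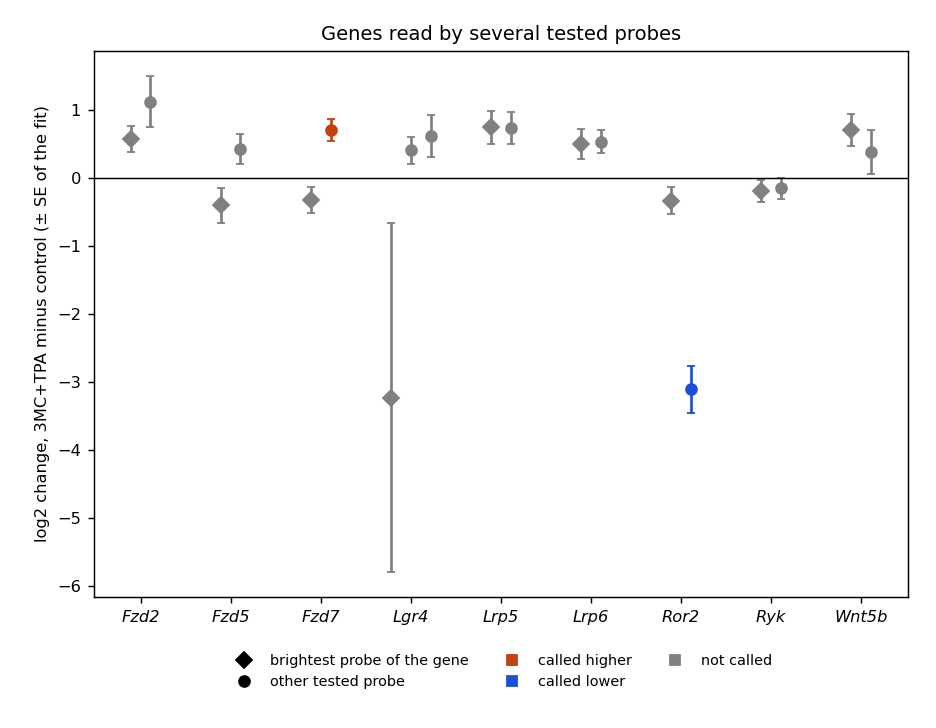
Log2 change, 3MC+TPA minus control, with the standard error of the limma fit (vertical axis), for the 9 genes with several tested probes. Diamonds are the brightest probe of a gene and circles the others; orange was called higher, blue lower and grey not called. Probes of Fzd5, Fzd7 and Lgr4 lie on both sides of 0, and those of Fzd7 and Ror2 differ in their call.

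The LRP coreceptors had positive log2 changes by all 4 of their probes, and none was called. Lrp5 read 3.16 and 2.72 in 3MC+TPA cells and 2.40 and 1.98 in control cells, a change of 0.75 ± 0.24 log2 (SE, n = 2 each; limma adjusted p = 0.1). Lrp6 read 3.85 and 3.53 against 3.41 and 2.98 in control cells, a change of 0.50 ± 0.22 log2 (SE, n = 2 each; limma adjusted p = 0.19). In both genes the 3MC+TPA pair lay above the control pair. Their second probes gave 0.74 ± 0.23 and 0.54 ± 0.17 log2 with limma adjusted p of 0.095 and 0.094. The 2 Lrp5 probes share a run of 48 bases and are close to a repeat of one measurement, whereas the Lrp6 probes do not overlap.

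Among the kinase-like receptors, no brightest probe was called and Ror2 differed between probes. Ryk, a pseudokinase receptor for Wnts, read 3.92 and 4.09 in 3MC+TPA cells and 4.25 and 4.14 in control cells, a change of -0.19 ± 0.16 log2 (SE, n = 2 each; limma adjusted p = 0.47), and its second probe gave -0.15 ± 0.15 log2. Ror1 was above background on no array. The brighter probe of Ror2, a receptor for Wnt5a, read -2.52 and -2.16 in 3MC+TPA cells and -2.14 and -1.89 in control cells, a change of -0.33 ± 0.20 log2 (SE, n = 2 each; limma adjusted p = 0.31). The other read -7.03 and -6.23 in 3MC+TPA cells, both below background, and -3.81 and -3.22 in control cells, both above it. It was at least 2.45-fold lower and called (limma adjusted p = 0.0067 over all probes). Both signs were negative, but the sizes differ, so the extent of any fall of Ror2 is not settled by these probes. With the measured probes of each gene combined by their median, Ror2 was called lower at -1.72 log2 (limma adjusted p = 0.017).

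The Ror2 probes, both on chromosome 13, are shown because they carry this disagreement. The first is the brighter.
Ror2 probe P234365: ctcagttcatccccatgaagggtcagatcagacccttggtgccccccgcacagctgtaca
Ror2 probe P234371: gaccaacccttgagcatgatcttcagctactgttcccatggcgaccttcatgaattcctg
They share no sequence run of 12 bases, and 35 bases of the first and 30 bases of the second are G or C, 58.3% and 50%.

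Over all 58 probes, 32 were tested, with 4 called higher and 5 lower. Of all 32107 probes tested, 15.5% were called, 7.44% higher and 8.05% lower. Several probes read 15 of the genes, 32 probes in all. In 9 of these genes more than 1 probe was tested, and in 6 of the 9 all tested probes had one sign.

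The genes that act on or after these receptors were taken from lists of 68 Wnt pathway genes, of which 57 were tested, 7 called higher and 12 lower, with a median log2 change of -0.15. Over all tested genes 7.33% were called higher and 8.34% lower, and the counts by list below stand beside the same shares. The lists were chosen with earlier results of these data known, so their counts describe the pathway and do not test it. Among the lower calls, Rnf43, Frzb and Nkd2 were above background only in control cells. Dact1 was above background on both control arrays but on only 1 of the 3MC+TPA arrays. For Rnf43, Frzb, Nkd2 and Dact1 the filter on low signal therefore favours a difference. With signal above background required on all 4 arrays, 7 list genes were called higher and 9 lower. That fit left these genes out, and not all of its lower calls are among the 12. Both Wnt secretion genes were called. Porcn, which attaches the lipid that Wnts need to leave the cell, read -2.22 and -1.72 in 3MC+TPA cells and -0.44 and -0.41 in control cells, 2.92-fold lower. Wls (Gpr177 in the files), which carries Wnts to the surface, read 5.22 and 4.97 against 4.25 and 3.87 in control cells, 2.05-fold higher (limma adjusted p of 0.013 and 0.032, n = 2 each). The call of Wls was kept in 1 of the 4 fits that left out an array.

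The 2 ubiquitin ligases that R-spondins withdraw also moved in opposite directions. Rnf43 read -6.93 and -6.98 in 3MC+TPA cells, below background, and -1.12 and -0.64 in control cells, at least 15.2-fold lower (limma adjusted p = 0.00032, n = 2 each). Znrf3 read -0.97 and -0.95 against -2.30 and -2.66 in control cells, 2.88-fold higher (limma adjusted p = 0.009, n = 2 each). In neither gene did the groups overlap. With normexp the Rnf43 change was -2.64 log2, and the call of Znrf3 was kept in 2 of the 4 fits that left out an array.

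The list of secreted Wnt inhibitors, which also holds the membrane proteins Kremen1 and Tpbg, had 9 tested genes. None was called higher and 4 were called lower: Sfrp1, Sfrp2 and Frzb, which bind Wnts outside the cell, and Notum, which strips their lipid. Frzb was at least 40.1-fold lower, and Notum 4.66-fold, with changes of -3.61 and -1.59 log2 under normexp. Dkk2, which blocks Lrp5 and Lrp6, was above background only in control cells and missed the threshold (limma adjusted p = 0.054, n = 2 each). Among 13 nuclear factors, Tcf7, Lef1 and Pygo1 were called lower, and Bcl9, Tle1 and Tle4 higher. Lef1 read 5.04-fold lower, or -1.28 log2 with normexp against -2.33 as reported, and Tcf7 2.31-fold lower. With 1 array left out, the calls of Bcl9, Tle1 and Tle4 were kept in 0 of 4 fits, that of Tcf7 in 1 and that of Pygo1 in 2, while that of Lef1 was kept in all 4. Of 10 tested Wnt target genes, 4 were called lower (Lef1, Tcf7, Notum and Rnf43) and 1 higher (Znrf3). Each of these also stands in a list above, so the calls are the same ones again. The tested targets in no other list, Ccnd1, Myc, Wisp1 and Cd44, were not called. The widely used target Axin2 was above background on no array. Of 16 cytoplasmic genes Dvl1 was called higher and Nkd2 and Dact1 lower, with the call of Dvl1 kept in 0 of the 4 fits that left out an array. Dact1 changed by -1.84 log2, or -0.89 log2 with normexp. Ctnnb1, which encodes beta-catenin, changed by -0.07 ± 0.15 log2 (limma adjusted p = 0.79, n = 2 each). Of 11 tested planar polarity genes Prickle2 was called higher and Ptk7 lower.

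**Figure D4:**
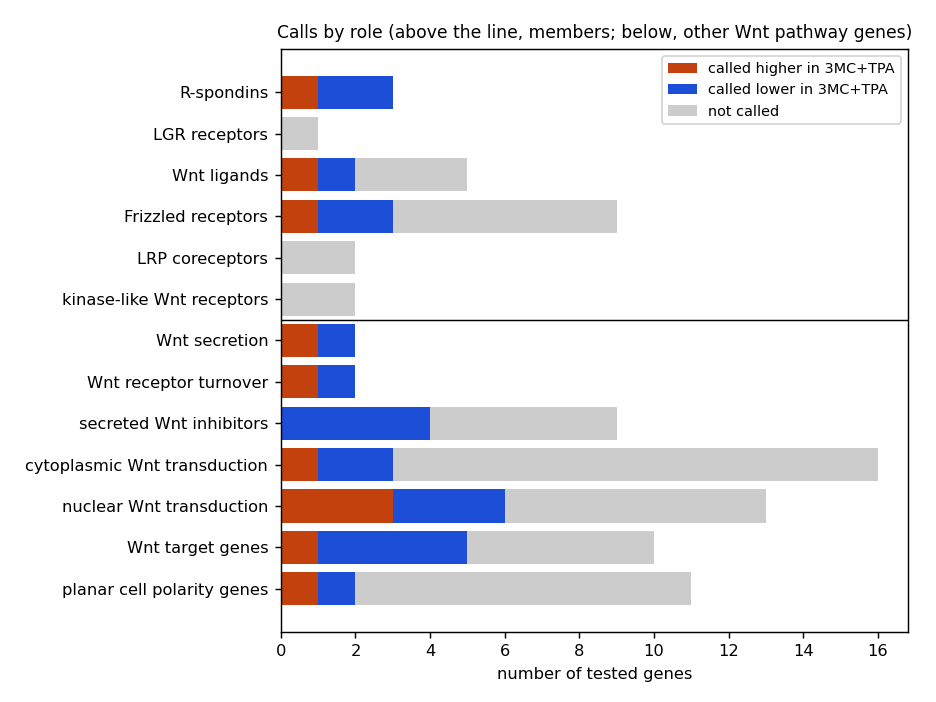
Number of tested genes (horizontal axis) called higher in 3MC+TPA cells (orange), called lower (blue) or not called (grey), by role. Rows above the line are the ligands and receptors described here and rows below are other Wnt pathway genes, some of which stand in 2 lists. All 3 tested R-spondins were called, and no LRP, LGR or kinase-like receptor was, where 15.7% of all tested genes were called.

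The promoters of 28 of the 41 genes were in the RefSeq table used (mouse build GRCm38.p6, windows of 300 bases around each gene's start), among them 4 of the 8 called genes: Rspo1, Wnt9a, Fzd1 and Fzd4. The letters TGANTCA, the site bound by AP-1, a factor that phorbol esters are known to activate, were found on either strand in 2 of the 28 promoters and in 0 of the 4, against 7.81% of all 32851. The letters GCGTG, the core bound by the aryl hydrocarbon receptor, for which 3MC is a known ligand, were in 16 of the 28 and 2 of the 4, against 32.4% of all. The TCF/LEF letters CTTTGA were in 4 of the 28 and 1 of the 4, against 16% of all. These letter matches describe the windows and do not show binding. The member counts are of genes, whereas the shares of all are of promoters. GCGTG contains a CpG pair, and the 4 called promoters held 16 to 58 such pairs, above the median of all promoters given below. The shares were not matched for CpG content, and its part in them was not tested. The promoters of Rspo1 and Wnt9a are printed because these were the called genes in the table with the largest fall and the largest rise. They hold 29 and 58 CpG pairs, where the median over all promoters was 7, and GCGTG is in capitals where present.
Rspo1 promoter, chr4:124986180-124986479, plus strand: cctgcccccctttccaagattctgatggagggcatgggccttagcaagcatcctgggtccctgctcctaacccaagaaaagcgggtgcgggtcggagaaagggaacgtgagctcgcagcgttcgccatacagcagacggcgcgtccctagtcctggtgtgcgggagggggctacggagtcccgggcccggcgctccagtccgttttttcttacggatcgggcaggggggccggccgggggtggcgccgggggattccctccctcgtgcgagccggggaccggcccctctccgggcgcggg
Wnt9a promoter, chr11:59306680-59306979, plus strand: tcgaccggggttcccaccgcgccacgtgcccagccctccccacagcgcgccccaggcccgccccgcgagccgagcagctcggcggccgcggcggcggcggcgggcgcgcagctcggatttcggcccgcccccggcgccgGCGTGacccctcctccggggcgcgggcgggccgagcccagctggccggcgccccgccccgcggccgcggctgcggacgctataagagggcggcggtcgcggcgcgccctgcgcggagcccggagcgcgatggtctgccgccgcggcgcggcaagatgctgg
The Rspo1 window held none of the 3 motifs, and the Wnt9a window held 1 match to GCGTG.

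Of the 16 genes that lie next to the 8 called ones in the RefSeq gene order, 9 were tested and 2 were called (15.7% of all tested genes were called), a count too small to set neighbours apart. Baalc, beside Fzd6, was higher by 2.62 log2 (limma adjusted p = 0.0012). Angpt1, beside Rspo2, fell by 0.76 log2 (limma adjusted p = 0.041). Wnt9a lies beside Wnt3a on chromosome 11, and Wnt3a was above background on no array. In the other pairs of adjacent Wnt genes (Wnt6 and Wnt10a, Wnt9b and Wnt3, Wnt10b and Wnt1) no gene was tested.

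**Figure D5:**
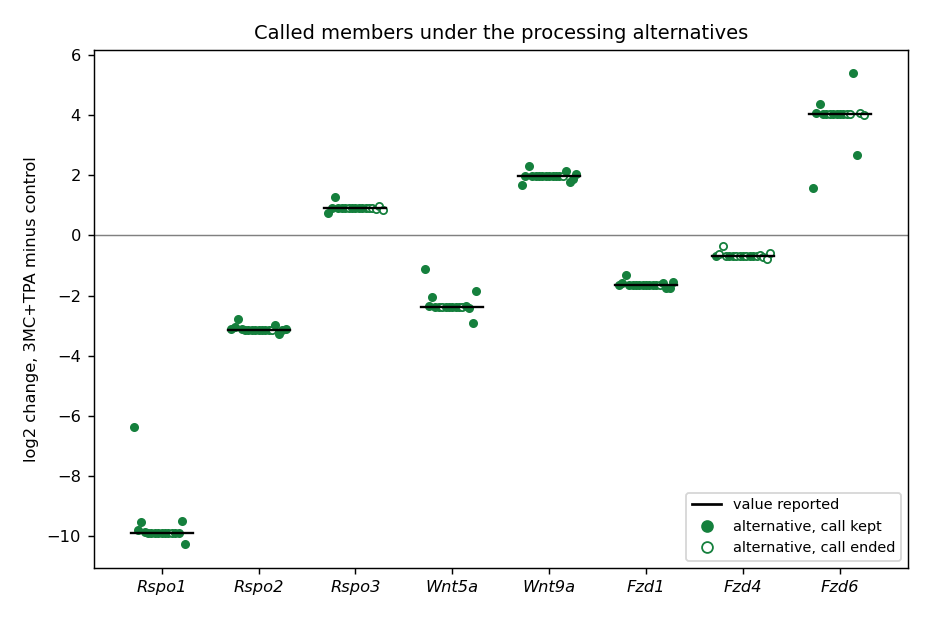
Log2 change of the 8 called genes, 3MC+TPA minus control (vertical axis), as reported (black line) and under each processing alternative that gave a value (circles), filled where the call was kept and open where it ended. No gene crossed 0. Fzd6 spread from 1.57 to 5.38 and Rspo1 from -10.26 to -6.36.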

How the data were processed

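RNA of C3H10T1/2 cells was hybridised to a custom one-colour Agilent mouse array, 2 arrays of 3MC+TPA cells and 2 of control cells. Per the file headers the authors' scanner files were made with Agilent Feature Extraction 10.7.3.1, and their processed intensity is already background-subtracted. The authors' deposited table holds log2 values without a stated scale. Its columns equalled the log2 values computed here within 0.01 for at least 61236 of 61307 probes, with column medians of -4.39 and -4.35 in 3MC+TPA and -4.29 and -4.31 in control arrays.

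Processed intensity was divided by its 75th percentile on the array, taken over probe spots that are neither controls nor flagged as outliers, log2 transformed and averaged over the spots of a probe. Genes were named as in the files, and 57 of 58 member accessions were in the RefSeq gene table. Limma 3.58.1 in R 4.3.3 (lmFit, eBayes, 2-sided, Benjamini-Hochberg over all features, adjusted p threshold 0.05) was fitted on all 4 arrays, after a check on simulated data. No depth exists for arrays, and 2 arrays per group limit the precision. All arrays lay on 1 slide with each group in neighbouring positions, so position and group cannot be told apart. Replicate numbers did not pair the arrays. Every tested member was named. The members and lists were chosen with earlier results of these data known. Alternatives covered background correction, scaling, the filter on dim probes, outlier flags, the probe standing for a gene, the variance model, the replicate block, the methods' t-test, the deposited table and leaving out each array.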

Additional observations from a re-analysis of the deposited data

How the results depend on the processing

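None of the 8 called genes changed sign under any alternative. With normexp background correction 5 member genes and 8 member probes were called higher. With no scaling between arrays all tested genes shifted by a median of 0.34 log2, 6687 were called (79.1% of them higher, against 46.8% as reported), and 8 member genes, 14 member probes and 14 list genes were called higher, with a member median of 0.10. The added member genes were Lrp5, Lrp6, Wnt5b, Fzd2 and Fzd8, and uncalled Fzd7, Ror2, Ryk and Wnt11 turned positive (0.03, 0.02, 0.17 and 0.03 log2). Asking for signal above background on all 4 arrays left 3 member genes and 3 member probes lower. With no filter all 41 were tested, 926 features were called, 1 member gene was called higher and 3 lower (probes 1 and 3, list genes 1 and 7). The median of a gene's probes gave a member median of 0.11. The replicate block left 4 list genes higher and ended the call of Fzd4 (adjusted p = 0.073); deviations of same-numbered arrays correlated at 0. The methods' t-test called 2 member genes higher and 5 lower at an unadjusted 0.05, but after Benjamini-Hochberg 21 features in all, 0 member genes or probes in either direction, 0 list genes higher and 1 lower. Leaving out 1 array gave 1182 to 3280 features called (1441 and 1182 without the first and second 3MC+TPA array, 3280 and 2430 without the first and second control array), 1 to 5 member genes higher and 4 to 5 lower, a member median of -0.22 to 0.21, 0 to 3 list genes higher and 1 to 8 member probes higher; without either 3MC+TPA array Wnt9a alone of the members was called higher. The cause of these shifts was not tested, beyond the smaller number of arrays in the last. Signal near background limits 14 Wnt ligands, Lgr5, Lgr6, Ror1, Rspo4 and Fzd3.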
